A study of Mus musculus with 48 samples.

Results

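Homeostatic microglia identity genes are genes by which resting brain microglia are told from macrophages that enter the brain from the blood, and 9 of them are described here: P2ry12, Tmem119, Sall1, Gpr34, Olfml3, Sparc, Cx3cr1, Siglech and Crybb1. They were found by symbol, and they make up 9 of the 20300 genes in the whole-tumor count table and 9 of the 14363 genes in the table of CD11b+ cells. The study sequenced single cells from mouse glioblastomas grown from GL261 glioma cells, to ask what the cells of a tumor express when its cancer cells make less P-selectin. In the shNC group the GL261 cells carried a negative-control shRNA, and in the shSELP group they carried an shRNA against Selp, the gene of P-selectin. All hosts were male C57BL/6 mice of 6 weeks, injected in the striatum, and brains of 3 mice per group were pooled. The whole-tumor libraries (2 shNC and 2 shSELP, labelled day 16) hold CD11b+ cells, the remaining CD45+ cells, and cancer and other cells in equal amounts, and the CD11b+ libraries (1 shNC and 1 shSELP, labelled day 21) hold cells sorted with magnetic beads. The methods name another day, and the labels and methods name different versions of the droplet kit. The libraries of a group are not stated to be separate pools of mice, so each p-value measures only the spread between these libraries.

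Microglia settle in the brain before birth and maintain themselves there, while macrophages of a tumor come largely from blood monocytes. Microglia at rest express a set of receptors, secreted proteins and regulators that keeps them scanning the tissue, and this set depends on TGF-beta signalling and on the transcription factor Sall1. Microglia near tumors, plaques or injury commonly express less of it.

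The whole-tumor libraries held 22945972 UMIs in shNC 1, 22626413 in shNC 2, 17398121 in shSELP 1 and 25589350 in shSELP 2, and the CD11b+ libraries held 12628177 in shNC 1 and 11445676 in shSELP 2. The knockdown could not be checked in these data. Selp itself gave 1 UMI in the tumor-like cells of shNC 1, 1 in shNC 2, 0 in shSELP 1 and 1 in shSELP 2. Its highest class mean was in endothelial-like cells, at 35.3 CPM (UMIs of a gene per 1000000 UMIs of its class in a library). In the deposited descriptions, 7 sequencing entries of the CD11b+ shSELP library name the negative control, and the titles and column names, which name shSELP, were followed. Pairs of libraries shared 0 to 3 cell barcodes.

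Clusters were made without the 9 genes and named from other markers, and "like" marks that a class rests on such markers. Microglia-like cells numbered 133 in shNC 1, 180 in shNC 2, 372 in shSELP 1 and 229 in shSELP 2, and macrophage-like cells numbered 977, 845, 580 and 866 in the same order. They summed to 1175893, 2117638, 3386274 and 2064791 UMIs in microglia-like cells, and to 11378684, 10389877, 6402432 and 14279727 in macrophage-like cells. The microglia-like class held 2 clusters, a deep one whose leading genes include Fcrls, with all 12 microglia markers raised, and a shallow one led by Cst7 with 4 of 12. The shallow cluster made up 34.6% of microglia-like cells in shNC 1, 41.7% in shNC 2, 18.3% in shSELP 1 and 50.2% in shSELP 2. Library shSELP 1 stood apart: it was the shallowest, 17.0% of its cells were microglia-like against 6.09% to 10.5% in the other 3 libraries, and its macrophage-like cells carried neutrophil RNA. The 7 neutrophil markers summed to 3280 CPM there (S100a8, the most abundant, 1510 CPM) against 335 CPM in shNC 1, 337 CPM in shNC 2 and 295 CPM in shSELP 2, and values without shSELP 1 are given where it decides a result.

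Across the cell classes of the tumor, P2ry12, the ADP receptor that steers microglial processes, averaged 277 ± 134 CPM (SD, n = 4 libraries) in microglia-like cells and 19.8 ± 8.99 CPM in macrophage-like cells. Gpr34, a receptor for lysophosphatidylserine, averaged 173 ± 84.3 CPM in microglia-like and 5.25 ± 4.56 CPM in macrophage-like cells, below mural-like cells at 15.1 CPM and T cell-like cells at 10.0 CPM. Cx3cr1, the receptor for the neuronal ligand fractalkine, averaged 784 ± 183 CPM in microglia-like and 114 ± 42.4 CPM in macrophage-like cells. For these 3 receptors the lowest microglia-like library lay above every library of every other class. Cx3cr1 alone of the 3 also had macrophage-like libraries, at 62 to 162 CPM, that did not overlap the next class, mural-like cells at 28 CPM. Siglech, a sialic acid-binding lectin also known from plasmacytoid dendritic cells, averaged 257 ± 119 CPM in microglia-like and 6.16 ± 7.42 CPM in macrophage-like cells. Its highest mean, 454 ± 337 CPM over 3 libraries, was in an unnamed cluster of 159 cells led by Igkc, Iglc1 and Ly6d, and that class and microglia-like cells overlapped. All other classes were at or below 15.1 CPM for Siglech.

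Sall1, the transcription factor that keeps microglia from taking on macrophage traits, averaged 47.2 ± 16.6 CPM in microglia-like and 0.754 ± 1.17 CPM in macrophage-like cells. Oligodendrocyte-like cells came next for Sall1 at 9.53 ± 2.24 CPM, without overlap with microglia-like cells. Tmem119, a membrane protein used to mark microglia, averaged 297 ± 61.5 CPM in microglia-like and 61.1 ± 19.3 CPM in macrophage-like cells. For Tmem119 the tumor-like cells at 27.2 CPM and the oligodendrocyte-like cells at 23.9 CPM followed. Olfml3, a secreted olfactomedin-like protein, averaged 518 ± 54.1 CPM in microglia-like cells, 125 ± 9.74 CPM in macrophage-like cells and 82.5 CPM in oligodendrocyte-like cells, whose libraries ran from 6.52 to 167 CPM. Crybb1, a lens crystallin also made by immature microglia, averaged 288 ± 74.9 CPM in microglia-like and 5.47 ± 5.59 CPM in macrophage-like cells. Sparc, a secreted matrix protein, was different: microglia-like cells, at 795 ± 274 CPM, came after 4 other classes. Sparc reached 2190 ± 683 CPM in mural-like cells (2 libraries), 2000 ± 610 CPM in endothelial-like cells, 981 ± 975 CPM in oligodendrocyte-like cells and 822 ± 123 CPM in tumor-like cells, with each neighbor in that order overlapping. Macrophage-like cells held 24.8 CPM of Sparc, from 10.2 to 53.9 CPM by library.

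**Figure D1:**
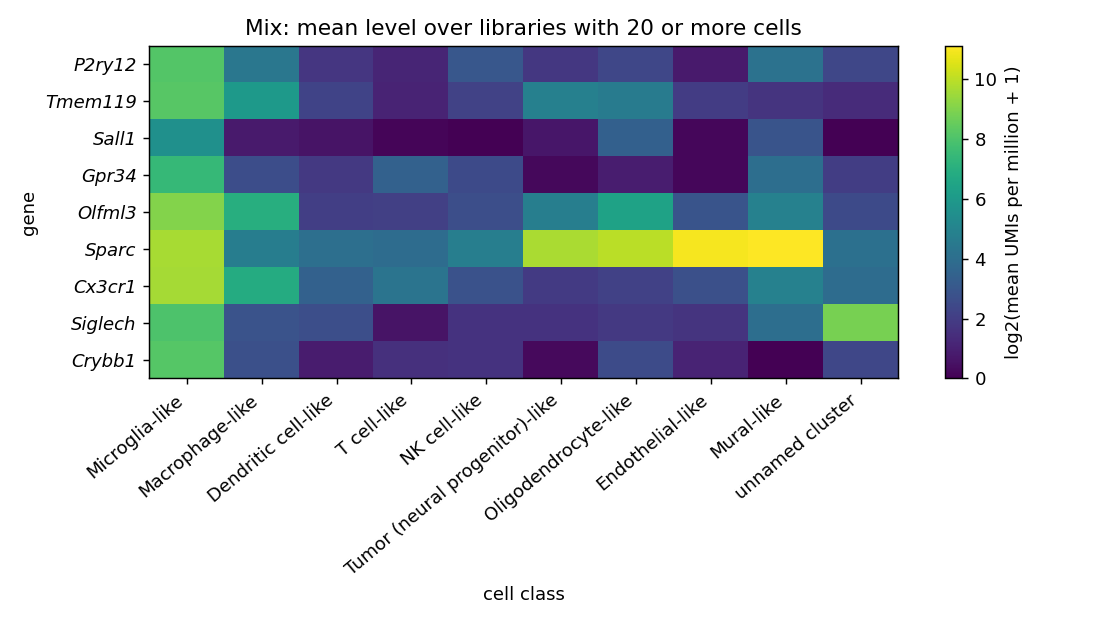
Heatmap of log2 of the mean CPM plus 1 of each of the 9 genes (one axis) in each cell class of the whole-tumor libraries (other axis). P2ry12 averaged 277 CPM in microglia-like cells, Siglech 454 CPM in the unnamed cluster, and Sparc 2190 CPM in mural-like cells.

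Over 34 class-by-library sums of the 9 named classes, which leave out the unnamed cluster where Siglech was highest, the levels of P2ry12 and Siglech moved most closely together, with Pearson r = 0.962 on log2 of CPM plus 10. Siglech and Crybb1 followed at r = 0.949. Sparc stood apart from the other 8 genes, with r from -0.002 (Cx3cr1) to 0.413 (Sall1), while the pairs without Sparc ran from 0.693 (Gpr34 and Olfml3) upward. Sums of 1 library share its depth and preparation, so these r describe the sums only. Outside the list, 6146 genes were compared in the same way. The genes most like P2ry12 included Hpgds (0.945) and Fcrls (0.944). Those most like Cx3cr1 were Fcrls (0.959), Hpgds (0.947) and P2ry6 (0.937). Siglech, again without the unnamed cluster, was most like Cxcl13 (0.928), Hpgds (0.908) and Fcrls (0.896), and Gpr34 was most like Cxcl13 (0.903), Fcrls (0.883) and Hpgds (0.864). Crybb1 was most like Cxcl13 (0.954), Blnk (0.883) and Fcrls (0.88), and Sall1 like Cxcl13 (0.86), Tanc2 (0.839) and Abhd12 (0.836). Chemokine genes led for Olfml3, with Ccl12 (0.917), Ccl8 (0.913) and Ccl7 (0.911), and Ccl8 (0.903) was also near Tmem119, beside Lgals3bp (0.904) and Syngr1 (0.891). Sparc was most like Egr1 (0.968), Pros1 (0.953) and Rhob (0.934), none of which was among the nearest genes of the other 8.

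To compare microglia with macrophages for 1 gene at a time, cells of both classes were gated on the other 8 genes: microglia with a UMI of at least 3 of them, macrophages with a UMI of at most 1. The members are known microglia genes, so a higher level in gated microglia is no finding, and the size of the difference depends on the gate and on depth. For P2ry12, gated microglia held 64.2 CPM in shNC 1, 82.1 in shNC 2, 319 in shSELP 1 and 106 in shSELP 2, and gated macrophages held 11.2, 8.02, 15.1 and 8.94 CPM. The 2 gates did not overlap, and the edgeR quasi-likelihood test gave a log2 difference of 3.43 (SE 0.20, Benjamini-Hochberg adjusted p = 6.21e-07), higher in 4 of 4 libraries, where 15.2% of all genes tested in that gate were higher. Cx3cr1 held 432, 382, 828 and 434 CPM in gated microglia, and 104, 66.8, 70.4 and 44.0 CPM in gated macrophages. Tmem119 held 151, 171, 312 and 173 CPM against 52.5, 28.3, 40 and 24.2 CPM. Olfml3, with 307, 384, 509 and 334 CPM against 109, 107, 87.7 and 91.8 CPM, had the smallest difference of the 9, a log2 difference of 1.84 (SE 0.13). Those of Tmem119 and Cx3cr1 were 2.37 (SE 0.18) and 2.75 (SE 0.20). Siglech and Sall1 had the largest log2 differences of the 9. Siglech held 36.5, 60.2, 263 and 85.4 CPM in gated microglia against 3.39, 0.714, 4.52 and 0.351 CPM, a log2 difference of 5.63 (SE 0.30). Sall1 held 6.45, 12.3, 40.1 and 18.1 CPM in gated microglia, and gated macrophages gave 2, 0, 0 and 2 UMIs, so the fitted 5.85 (SE 0.42) rests on 4 UMIs on the macrophage side.

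Gpr34 held 28.9, 50.9, 189 and 45.8 CPM in gated microglia against 3.05, 1.41, 2.48 and 1.92 CPM, a log2 difference of 4.81 (SE 0.25). Sparc held 133, 280, 785 and 250 CPM against 12.1, 21.7, 18.4 and 12.8 CPM, a difference of 4.15 (SE 0.21). Crybb1 held 37.7, 96.6, 203 and 109 CPM against 5.21, 4.94, 6.56 and 9.39 CPM, a difference of 3.83 (SE 0.20). For each of the 9 genes the gates did not overlap and library shSELP 1 was the highest in gated microglia. Each of the 9 passed in its own gate by edgeR quasi-likelihood with Benjamini-Hochberg adjustment, at adjusted p = 3.62e-06 or below. The share of all genes higher in gated microglia was 16% in the gate for Tmem119, 15% for Sall1, 14.9% for Gpr34, 18.6% for Olfml3, 16.6% for Sparc, 16.2% for Cx3cr1, 15.1% for Siglech and 15% for Crybb1. Without shSELP 1 the log2 differences were 3.15 for P2ry12, 2.24 for Tmem119, 5.27 for Sall1, 4.32 for Gpr34, 1.66 for Olfml3, 3.80 for Sparc, 2.56 for Cx3cr1, 5.61 for Siglech and 3.58 for Crybb1. The gate and the clusters did not hold the same cells: from 22.9% to 79.4% of gated microglia, by gene and library, lay in microglia-like clusters, and this share was highest in shSELP 1 for each gene. With at least 5 of the other 8 genes the share was 78.3% to 97.2%, and the log2 differences grew to 4.79 for P2ry12, 5.26 for Crybb1 and 7.0 for Siglech. With at least 2 they were 2.96 for P2ry12, 1.41 for Olfml3 and 5.18 for Siglech, and with cells thinned to 2000 UMIs 4.98 for P2ry12, 6.34 for Gpr34, 5.94 for Sparc and 7.32 for Siglech. The macrophage gate can also take in microglia-like cells, of which 135 of 914 had a UMI of at most 1 of the 9 genes. Without the shallow microglia-like cluster, left out after seeing the data, Crybb1 was at 5.43. Sall1 was then at 6.66, Siglech at 5.89, Gpr34 at 5.35 and P2ry12 at 3.45.

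Single cells of the 2 classes overlapped in how many of the 9 genes they showed. A UMI of at least 5 genes was found in 62.6% of 914 microglia-like cells (median 7039 UMIs) and in 2.72% of 3268 macrophage-like cells (median 11942.5 UMIs). All 9 genes were found in 156 microglia-like and 7 macrophage-like cells, and none of the 9 in 57 and 779 cells. Exactly 2 or 3 genes were found in 137 microglia-like and 1341 macrophage-like cells. In the CD11b+ libraries at least 5 genes were found in 50.5% of microglia-like and 0.421% of macrophage-like cells.

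Detection per cell was compared after thinning every cell to 2000 UMIs, which left out 176 microglia-like and 78 macrophage-like cells. P2ry12 was then found in 40.4% of microglia-like cells in shNC 1, 24.8% in shNC 2, 59.0% in shSELP 1 and 30.2% in shSELP 2, and in 2.51%, 2.06%, 2.84% and 2.13% of macrophage-like cells. Without thinning these were 57.9%, 57.8%, 75.8% and 53.7% of microglia-like cells (median UMIs 6529, 8859, 6947.5 and 6443), and 16.8%, 13%, 18.4% and 16.2% of macrophage-like cells (median UMIs 11063, 10542, 10249 and 15944). In T cell-like cells, which should lack P2ry12, the share was 0.240%, 0.227%, 0.505% and 0% thinned, and 0.889%, 0.652%, 1.46% and 0% unthinned (median UMIs 5560, 5532.5, 4892 and 7495). The P2ry12 share in macrophage-like cells thus lay above that background in each library. Cx3cr1 was found in 65.4%, 54.1%, 76.6% and 61.6% of thinned microglia-like cells, in 22.2%, 12.6%, 18.3% and 8.15% of thinned macrophage-like cells, and in 3.12%, 4.54%, 3.03% and 4.52% of thinned T cell-like cells. Olfml3 was found in 60.6%, 58.6%, 66.0% and 50% of thinned microglia-like cells, in 22.7%, 18.4%, 16.1% and 17.8% of thinned macrophage-like cells, and in 1.2%, 1.59%, 0.505% and 0.645% of thinned T cell-like cells. For these 2 genes too, macrophage-like cells were above background in every library. Unthinned, Cx3cr1 was in 72.9%, 67.8%, 85.5% and 63.3% of microglia-like, 56.2%, 38.9%, 45.3% and 35.9% of macrophage-like and 8.0%, 10.9%, 6.59% and 10.6% of T cell-like cells, and Olfml3 was in 75.9%, 73.9%, 81.7% and 69.4%, 59.9%, 52.4%, 51.2% and 60.6%, and 2.89%, 1.96%, 1.71% and 2.34%. Gpr34 was found in 0.419%, 0.607%, 1.42% and 0.590% of thinned macrophage-like cells and in 0.721%, 1.13%, 2.02% and 1.29% of thinned T cell-like cells, and unthinned in 3.17%, 3.31%, 5.86% and 2.08% against 4.22%, 5.87%, 6.59% and 6.58%. T cell-like cells thus had the higher share of Gpr34 in each library, and they give no background for it, since their 10.0 CPM lay above the 0.175 CPM of tumor-like and the 0.15 CPM of endothelial-like cells. The lowest macrophage-like library for Gpr34, at 2.1 CPM, also lay above the highest tumor-like library, at 0.415 CPM, and the highest endothelial-like one, at 0.599 CPM.

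In the microglia-like cells of the tumors, shSELP was compared with shNC to ask whether identity genes differ where the cancer cells carry the Selp shRNA. P2ry12 measured 216 CPM in shNC 1, 165 in shNC 2, 471 in shSELP 1 and 258 in shSELP 2. Gpr34 measured 133, 121, 299 and 140 CPM in the same order. Both shSELP libraries lay above both shNC libraries for these receptors, with shSELP 1 far above the rest and, for Gpr34, shSELP 2 close to shNC 1. The edgeR quasi-likelihood fit gave a log2 difference of 0.88 (SE 0.23) for P2ry12, Benjamini-Hochberg adjusted p = 0.0914, and of 0.74 (SE 0.26) for Gpr34, adjusted p = 0.192, so neither passed. Without shSELP 1 these were 0.41 and 0.11. Cx3cr1 measured 726, 572, 1010 and 833 CPM. Its libraries did not overlap, with shNC 2 the lowest, and its log2 difference of 0.44 (SE 0.16), or 0.32 without shSELP 1, did not pass (edgeR quasi-likelihood, Benjamini-Hochberg adjusted p = 0.214). Siglech measured 191, 148, 418 and 271 CPM. Siglech was higher in both shSELP libraries, highest in shSELP 1, and passed the test with a log2 difference of 0.97 (SE 0.20, edgeR quasi-likelihood, Benjamini-Hochberg adjusted p = 0.0409). Leaving out shSELP 1 gave 0.65 for Siglech with an adjusted p = 0.0739 by the same edgeR quasi-likelihood and Benjamini-Hochberg procedure, and leaving out shNC 2 gave 0.75 (adjusted p = 0.132), so the call rests on these libraries.

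Sall1 measured 34.9 CPM in shNC 1, 31.2 in shNC 2, 63.8 in shSELP 1 and 59.1 in shSELP 2. The 2 shSELP libraries were close to each other and above both shNC libraries. Sall1 passed with a log2 difference of 0.85 (SE 0.18, edgeR quasi-likelihood, Benjamini-Hochberg adjusted p = 0.0463). Without shSELP 1 the difference was 0.81 with adjusted p = 0.106, and without shNC 2 it was 0.72 with adjusted p = 0.313 (edgeR quasi-likelihood, Benjamini-Hochberg), so these libraries decide the call. Tmem119 measured 242, 267, 383 and 298 CPM. Its groups did not overlap, though shSELP 2 was near shNC 2, and the log2 difference was 0.36 (SE 0.15), or 0.19 without shSELP 1. Sparc measured 632, 649, 1200 and 696 CPM, with 1 library, shSELP 1, standing far above the rest. The log2 difference of Sparc was 0.50 (SE 0.20), and it was 0.08 without shSELP 1. Olfml3 measured 500, 499, 598 and 476 CPM, the one gene whose groups overlapped, with a log2 difference of 0.04 (SE 0.14), or -0.11 without shSELP 1. Crybb1 measured 205, 251, 325 and 373 CPM. For Crybb1 the highest library was shSELP 2 and not shSELP 1, and its log2 difference of 0.55 (SE 0.15) did not pass (edgeR quasi-likelihood, Benjamini-Hochberg adjusted p = 0.107). Without shSELP 1 it was 0.66 and passed, with adjusted p = 0.0356 in the same edgeR quasi-likelihood and Benjamini-Hochberg procedure.

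**Figure D2:**
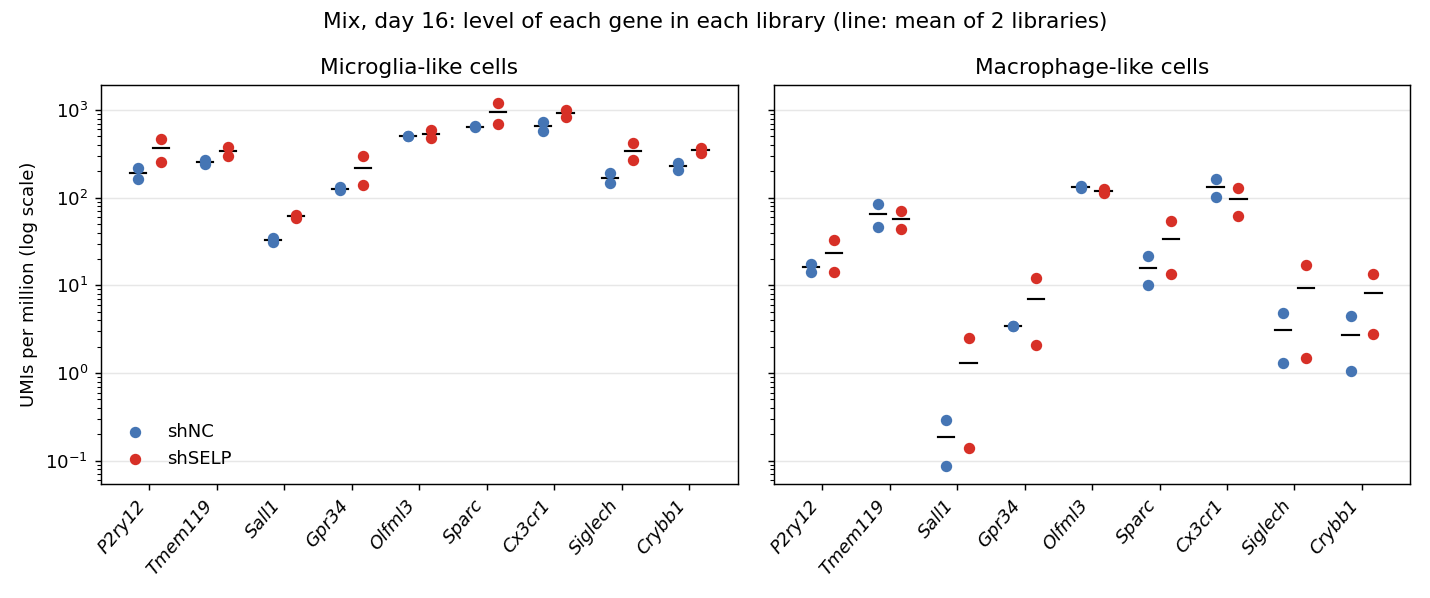
CPM (log axis) of each of the 9 genes in the microglia-like and macrophage-like cells of the whole-tumor libraries, day 16, with 1 dot per library and a line at the mean of the 2 libraries of a group. In microglia-like cells Siglech measured 191 and 148 CPM in shNC and 418 and 271 CPM in shSELP, and Olfml3, whose groups overlap, 500 and 499 against 598 and 476 CPM.

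In all, 2 of the 9 genes, Siglech and Sall1, passed as higher in microglia-like cells of shSELP, where 0.645% of 8840 genes tested did. At an unadjusted p under 0.05 there were 8 of 9 members and 1309 genes of all. The members' median log2 difference was 0.55, beside 0.01 for all genes tested. Of the 9 members, 8 did not overlap between the groups with shSELP above, as was the case for 27.9% of 10128 genes. DESeq2 called 1 member, Siglech, with a log2 difference of 0.95 and adjusted p = 0.00551, and gave no adjusted value for Sall1. Over all genes edgeR called 57 higher and 35 lower, and DESeq2 26 higher and 45 lower. How many members edgeR called changed with the library left out, and the range is given under the processing beside that of all genes. Without shNC 2 no member passed, and the lowest was Siglech (edgeR quasi-likelihood, Benjamini-Hochberg adjusted p = 0.132). With cells thinned to 2000 UMIs, where 3857 genes could be tested, Siglech at 0.52 and Sall1 at 1.06 did not pass. Nor did they in the gate of at least 3 of the other 8 genes, at 1.82 and 1.61 (edgeR quasi-likelihood, Benjamini-Hochberg adjusted p = 0.24 and 0.234), or with clusters made with the 9 genes, at 0.94 and 0.84 (edgeR quasi-likelihood, Benjamini-Hochberg adjusted p = 0.0778 and 0.0883). At resolutions 0.4 and 1.2 edgeR called 8 and 7 members, where it called 1093 of 9546 genes (538 higher) and 579 of 9766 genes (264 higher). Of the class at 0.4, 36.1% in shNC 1, 17.1% in shNC 2, 1.85% in shSELP 1 and 2.97% in shSELP 2 were macrophage-like at 0.8.

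The deep and the shallow microglia-like clusters were also read separately. In the deep cluster P2ry12 measured 235 CPM in shNC 1, 168 in shNC 2, 501 in shSELP 1 and 280 in shSELP 2, and Siglech measured 210, 160, 441 and 296 CPM. In the shallow cluster P2ry12 measured 107, 143, 221 and 152 CPM, and Siglech 84.7, 75.0, 234 and 152 CPM. In each cluster, both genes were higher in CPM in both shSELP libraries. The share of all genes that did so was not counted in the deep or the shallow cluster, so the non-overlaps there have no such share beside them. For P2ry12 in the shallow cluster the 95% counting intervals of shNC 2 (103 to 194 CPM) and shSELP 2 (115 to 198 CPM) overlapped. A P2ry12 UMI was found there in 19.6%, 24.0%, 36.8% and 17.4% of cells, with shSELP 2 the lowest. Sall1 measured 37.0, 32.3, 67.2 and 64.0 CPM in the deep cluster, again without overlap. In the shallow cluster Sall1 gave 4, 7, 13 and 13 UMIs, or 22.6, 23.9, 35.4 and 36.0 CPM, and a difference was not detectable at this depth, with 95% counting intervals of 6.15 to 57.8 CPM in shNC 1 and 19.2 to 61.6 CPM in shSELP 2. Crybb1 measured 195, 254, 322 and 340 CPM in the deep cluster and 260, 232, 349 and 529 CPM in the shallow one, where shSELP 2 was the highest. Cx3cr1 did not overlap in the deep cluster, at 748, 612, 1040 and 930 CPM. In the shallow cluster Cx3cr1 measured 604, 324, 754 and 374 CPM, and its groups overlapped. Gpr34 measured 143, 128, 315 and 153 CPM in the deep cluster and 73.4, 78.5, 169 and 83.2 CPM in the shallow one, with shSELP 2 near the shNC libraries in both. Tmem119 measured 255, 269, 406 and 317 CPM in the deep cluster and 164, 256, 191 and 211 CPM in the shallow one. Sparc measured 628, 687, 1270 and 746 CPM in the deep cluster and 655, 416, 640 and 460 CPM in the shallow one. Tmem119 and Sparc thus overlapped in the shallow cluster and not in the deep one. Olfml3 overlapped in both, at 489, 519, 594 and 482 CPM in the deep and 565, 375, 632 and 446 CPM in the shallow cluster. Without the shallow cluster Siglech and Sall1 passed, with log2 differences of 0.94 and 0.88, where edgeR called 75 of 8352 genes higher and 61 lower. In microglia-like cells the 17 macrophage markers summed to 4020, 2820, 2980 and 2540 CPM (Lyz2 the most abundant), and the 7 neutrophil markers to 57.0, 61.4, 100 and 74.6 CPM. The neutrophil markers were higher in both shSELP libraries of the class. So were the 10 of dendritic cells (103, 79.3, 159 and 144 CPM, Fscn1 the most abundant), the 5 of plasma cells (109, 77.9, 134 and 128 CPM) and the 5 of B cells (18.7, 18.9, 22.7 and 24.7 CPM). The same held for the 13 of tumor cells (45.1, 62.8, 75.9 and 79.4 CPM), the 5 of astrocytes (57.8, 52.9, 87.1 and 85.7 CPM, mostly Slc1a3) and the 6 of oligodendrocytes (24.7, 43.0, 50.2 and 51.8 CPM). The part of these RNAs in the differences of the 9 genes was not tested. Other marker lists did not follow. The 12 microglia markers, which leave out the 9 genes, overlapped between the groups (5920, 6540, 6960 and 5750 CPM). So did the markers of T cells (41.7, 107, 103 and 166 CPM) and of endothelial cells (61.2, 77.4, 59.9 and 63.4 CPM). The 5 of plasmacytoid dendritic cells were lower in both shSELP libraries (1030, 1300, 877 and 985 CPM, mostly Bst2). At resolution 1.2 the class split further, and the cluster with the highest levels of all 9 genes held 45 cells in shNC 1, 44 in shNC 2, 224 in shSELP 1 and 75 in shSELP 2, of 223, 225, 379 and 241 microglia-like cells. Within it the groups overlapped for P2ry12, at 551, 404, 754 and 496 CPM. They also overlapped for Siglech, at 566, 461, 682 and 549 CPM, and for Crybb1, at 426, 649, 486 and 539 CPM. Sall1, at 94.8, 67.6, 101 and 108 CPM, and Tmem119, at 438, 385, 543 and 496 CPM, did not overlap in that cluster, 2 of the 9 members where 25.5% of 8272 genes had both shSELP libraries above both shNC libraries. The other 4 overlapped: Gpr34 at 308, 297, 478 and 270 CPM, Sparc at 1430, 1720, 1910 and 1270 CPM, Cx3cr1 at 1360, 1010, 1400 and 1340 CPM, and Olfml3 at 761, 758, 787 and 685 CPM. The part of this unequal mix of clusters in the class differences was not tested.

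Genes of related lists were counted in the same fit of microglia-like cells. Of 25 other homeostatic microglia genes 2 were higher and 0 lower, with a median of 0.27: the transporter Slco2b1 (53.6, 55.7, 142 and 111 CPM) at log2 1.15 and the small GTPase Rhob (366, 285, 638 and 520 CPM) at 0.77. Without shSELP 1 Slco2b1 was at 0.98 and Rhob, at 0.64, no longer passed. Of 21 genes for transcription factors and TGF-beta signalling, 1 was higher, the immediate-early factor Egr1 (679, 404, 1280 and 995 CPM) at 1.01, and 0 were lower, with a median of 0.30. Of 21 genes of activated microglia 0 were higher and 8 lower, with a median of -0.42. They included Spp1 (osteopontin; 4640, 3170, 411 and 944 CPM) at -2.59, Gpnmb (546, 566, 115 and 201 CPM) at -1.88, the lipid carrier Fabp5 (1060, 867, 351 and 405 CPM) at -1.41 and the growth factor Igf1 (95.2, 137, 47.0 and 48.4 CPM) at -1.37. Of 15 monocyte and macrophage genes 2 were higher, F13a1 at 2.50 and Mrc1 at 1.39, and 1 lower, Ms4a7 at -0.81, with a median of -0.35 and 5 of 15 differences above 0. At an unadjusted p under 0.05 the 4 lists had 10, 10, 16 and 9 genes, where 1309 of all 8840 genes were. Over all genes the median was 0.01, and 57 were called higher and 35 lower.

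In macrophage-like cells of the same libraries the 9 genes were far lower and the groups overlapped more. Siglech measured 1.32 CPM in shNC 1, 4.81 in shNC 2, 17.0 in shSELP 1 and 1.47 in shSELP 2, and Crybb1 measured 1.05, 4.43, 13.6 and 2.80 CPM. Sparc measured 10.2, 21.4, 53.9 and 13.6 CPM, and Gpr34 3.43, 3.46, 12 and 2.10 CPM. For each of these 4 genes shSELP 1 was the highest library and shSELP 2 overlapped or lay below shNC. Their log2 differences, 1.5 for Siglech, 1.52 for Crybb1, 1.07 for Sparc and 0.93 for Gpr34, became -0.96, 0.13, -0.13 and -0.64 without shSELP 1. P2ry12 measured 17.7, 14.4, 33.1 and 14.1 CPM, with a log2 difference of 0.53 that became -0.11 without shSELP 1. Cx3cr1 measured 162, 101, 130 and 62 CPM, with shSELP 2 the lowest library and shNC 1 the highest. Tmem119 measured 83.8, 46.7, 70.3 and 43.6 CPM, and Olfml3 135, 130, 125 and 112 CPM. Only Olfml3 of the 9 had both shSELP libraries below both shNC libraries, by a log2 difference of -0.11 (SE 0.10), 1 of 9 where 29.9% of 11941 genes did. Sall1 gave 1, 3, 16 and 2 UMIs and was not tested. By edgeR quasi-likelihood 0 of the 8 members tested passed, where 0.46% of 11086 genes did, with 0 members at an unadjusted p under 0.05 and 0 called by DESeq2. Over all genes edgeR called 20 higher and 31 lower, and DESeq2 87 higher and 78 lower. Without shSELP 2, where shSELP 1 alone stands for its group, P2ry12, Gpr34, Siglech and Sparc were each higher in shSELP. The members' median log2 difference was 0.73, beside -0.01 for all genes tested, and it rests on shSELP 1, without which Crybb1 was the 1 member above 0. The neutrophil RNA of shSELP 1 moved with these values, and its part in them was not tested. Macrophage-like cells with many of the 9 genes were also most frequent in shSELP 1: 12 had 8 genes and 4 had all 9, against 0 and 0 in shNC 1, 0 and 2 in shNC 2, and 2 and 1 in shSELP 2. Among cells of both classes with a UMI of at most 1 of the other 8 genes, which leaves such cells out, the log2 differences were -0.07 for Siglech, -0.15 for Sparc and 0.76 for Crybb1. Of the related lists, 2 genes passed in macrophage-like cells, both of activated microglia and both lower: Lpl (23.5, 19.2, 3.12 and 6.23 CPM) at log2 -2.02 and Itgax (191, 167, 90.4 and 85.8 CPM) at -0.98. By edgeR the other homeostatic (24 genes), transcription factor (20) and monocyte (17) lists had 0 called, with 4, 3 and 9 genes at an unadjusted p under 0.05, where 1514 of all 11086 genes were.

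A test of the difference in response asked whether the shSELP to shNC difference itself differs between the 2 classes. For Cx3cr1 the fold of microglia-like over macrophage-like cells was 4.49 in shNC 1, 5.67 in shNC 2, 7.76 in shSELP 1 and 13.4 in shSELP 2. Both shSELP libraries had the higher folds, and the log2 difference in response was 0.87 (SE 0.21), which did not pass (edgeR quasi-likelihood, Benjamini-Hochberg adjusted p = 0.0582). It was 1.27 without shSELP 1, with adjusted p = 2.99e-10, and 0.47 without shSELP 2, with adjusted p = 0.153 (edgeR quasi-likelihood, Benjamini-Hochberg). P2ry12 had folds of 12.2, 11.4, 14.2 and 18.2, also higher in both shSELP libraries, with a log2 difference in response of 0.29. Tmem119 had folds of 2.88, 5.72, 5.45 and 6.85, with shNC 1 alone low, and Olfml3 had folds of 3.71, 3.85, 4.8 and 4.25. For Siglech (145, 30.8, 24.6 and 184), Crybb1 (194, 56.6, 23.9 and 133), Sparc (62, 30.4, 22.4 and 51.2) and Gpr34 (38.7, 35.0, 24.9 and 66.9) shSELP 1 had the lowest fold. Sall1 had folds of 397, 108, 25.5 and 422, also lowest in shSELP 1, with a log2 difference in response of -1.48 that rests on 1, 3, 16 and 2 UMIs in macrophage-like cells. Over 15 settings this difference of Sall1 ran from -2.81 to 1.4, so its direction turned with the processing. Without shSELP 1 the difference in response of Siglech went from -0.31 to 1.57, with adjusted p = 0.00299 (edgeR quasi-likelihood, Benjamini-Hochberg). By edgeR quasi-likelihood 0 of 9 members passed, where 1.1% of 10836 genes did, with 1 member, Cx3cr1, at an unadjusted p under 0.05 and 0 by DESeq2. Over all genes edgeR called 49 higher and 70 lower, and DESeq2 21 higher and 52 lower. Of the other homeostatic genes, 1 of 25 passed, the protease inhibitor Cst3 (8540, 7890, 18900 and 10600 CPM in microglia-like and 2270, 2160, 2270 and 1810 CPM in macrophage-like cells), at log2 0.77, or 0.52 without shSELP 1. Of 21 genes of activated microglia 2 were higher and 8 lower, and of 17 monocyte and macrophage genes 2 were higher and 3 lower. Of 21 transcription factor and TGF-beta genes 0 passed by edgeR, with 4 at an unadjusted p under 0.05, where 1208 of all 10836 genes were.

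In the CD11b+ cells of day 21, with 1 library per group, levels are given with no test, and the 95% intervals cover counting error only. Microglia-like cells numbered 242 in shNC and 217 in shSELP. Crybb1 measured 294 CPM in shNC and 107 CPM in shSELP (426 and 140 UMIs), a ratio of 0.362 (0.297 to 0.439). Siglech measured 108 and 69.2 CPM, a ratio of 0.643 (0.491 to 0.838), and Gpr34 measured 144 and 89.0 CPM, a ratio of 0.617 (0.488 to 0.777). These 3 genes were lower by 1.5-fold or more in shSELP, 3 of 9 members where 8.22% of 7478 genes were. P2ry12 measured 144 and 99.7 CPM, a ratio of 0.691 (0.551 to 0.863), and Olfml3 401 and 349 CPM, a ratio of 0.871 (0.769 to 0.986). Both were lower with intervals below 1. Sall1 measured 51.1 and 39.6 CPM (0.774, 0.532 to 1.12), Sparc 436 and 397 CPM (0.910, 0.809 to 1.02) and Cx3cr1 658 and 599 CPM (0.910, 0.827 to 1.0). The intervals of these 3 ratios reached 1, as did that of Tmem119, at 260 and 289 CPM (1.11, 0.963 to 1.29), so that 8 of 9 ratios were below 1, where 46% of 7478 genes were. Of the 9 genes, 7 were lower here and higher in both shSELP libraries of the whole tumor, where 12.3% of 7474 genes were. In the gate of at least 3 of the other 8 genes, Crybb1 was the 1 gene lower by 1.5-fold, at 0.522 (0.427 to 0.633). There the intervals of Gpr34, at 0.850 (0.678 to 1.06), P2ry12, at 0.867 (0.697 to 1.08), and Siglech, at 0.913 (0.698 to 1.19), reached 1. In that gate Olfml3 was at 1.03 (0.909 to 1.16), and Sparc, at 1.34 (1.19 to 1.51), Cx3cr1, at 1.11 (1.01 to 1.22), and Sall1, at 1.15 (0.79 to 1.65), were higher in shSELP. A gate of at least 5 was chosen after seeing the data. There Cx3cr1 was at 0.959 (0.833 to 1.1), Sall1 at 0.832 (0.511 to 1.33) and Sparc at 1.1 (0.949 to 1.26). Gpr34, at 0.665 (0.493 to 0.89), and Crybb1, at 0.477 (0.381 to 0.593), had intervals below 1 in that stricter gate. With cells thinned to 2000 UMIs, Gpr34 was at 0.726 (0.491 to 1.06), P2ry12 at 0.815 (0.566 to 1.17) and Olfml3 at 0.906 (0.728 to 1.13), so that these intervals reached 1, while Tmem119 was at 1.32 (1.03 to 1.69). With TMM scaling the intervals of Sparc (0.784 to 0.992) and Cx3cr1 (0.801 to 0.970) lay below 1.

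In the macrophage-like cells of the CD11b+ libraries (2326 in shNC and 2421 in shSELP) the ratios of all 8 members with at least 20 UMIs were below 1, where 39.6% of 10645 genes were. Crybb1 measured 6.12 CPM in shNC and 1.15 CPM in shSELP (65 and 11 UMIs), a ratio of 0.187 (0.089 to 0.357). Siglech measured 3.39 and 1.67 CPM, a ratio of 0.491 (0.255 to 0.908), and Sall1 gave 12 and 7 UMIs, a ratio of 0.645 (0.215 to 1.78). Crybb1 and Siglech were thus lower by 1.5-fold or more, where 5.29% of the 10645 genes with at least 20 UMIs were. Sall1, under that minimum, also passed this fold, and its interval spanned 1. Tmem119 measured 119 and 80.3 CPM (0.673, 0.615 to 0.737), Cx3cr1 174 and 146 CPM (0.842, 0.785 to 0.903) and Olfml3 116 and 95.8 CPM (0.829, 0.760 to 0.904). The intervals of these 3 lay below 1, and those of P2ry12 (0.822, 0.669 to 1.01), Gpr34 (0.751, 0.520 to 1.08) and Sparc (0.900, 0.647 to 1.25) reached it. Crybb1 had the lowest ratio of the 9 genes in both classes. After thinning, Crybb1 was found in 32.7% of microglia-like cells in shNC and 16.3% in shSELP, and unthinned in 46.3% and 28.1% (median UMIs 5821.5 and 5856). In the unnamed cluster of those libraries, taken as background, the thinned Crybb1 share was 1.2% and 0% (median UMIs 2911.5 and 2685). The neutrophil markers summed to 127 CPM in shNC and 32.7 CPM in shSELP in microglia-like cells, and to 118 and 43.9 CPM in macrophage-like cells, and their part in the ratios was not tested. The day, the sort and the library preparation differ together between the whole-tumor and the CD11b+ libraries and cannot be told apart.

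**Figure D3:**
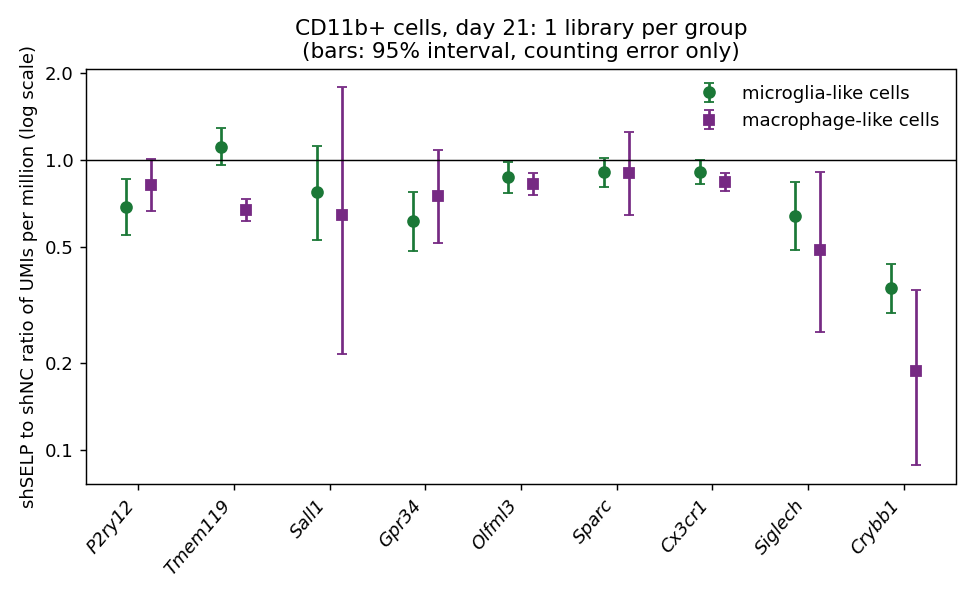
Ratio of CPM in shSELP to shNC for each of the 9 genes in microglia-like and macrophage-like cells of the CD11b+ libraries, day 21, with 95% intervals for counting error and 1 library per group. Crybb1 lies lowest in both classes, at 0.362 and 0.187, and Tmem119 in microglia-like cells lies at 1.11.

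All 9 genes were found in the GENCODE annotation of GRCm38. P2ry12 lies on chromosome 3 at 59216272 to 59262871, minus strand, inside Med12l on the other strand, and Gpr34 lies on chromosome X at 13632089 to 13640858, plus strand, inside Cask on the other strand. Cx3cr1 (chromosome 9, 119901616 to 120069879) overlaps Wdr48, Gorasp1 and Csrnp1 among others. Siglech lies on chromosome 7 at 55768178 to 55778925, Sall1 on chromosome 8 at 89027235 to 89044162, and Tmem119 on chromosome 5 at 113793729 to 113800516. Crybb1 lies on the same chromosome as Tmem119, at 112255815 to 112269585, while Olfml3 (103722222 to 103738001) shares chromosome 3 with P2ry12, and Sparc lies on chromosome 11 at 55394500 to 55423183. RefSeq promoter windows of 300 bases (GRCm38.p6) were at hand for 7 of the 9 genes, without Tmem119 and Gpr34, in 9 windows, 3 of them for Sall1. They were searched on both strands for GAGGAAGT, the site of the myeloid factor PU.1, for its inner part AGGAAGT, and for the MEF2 sites TAAAAATA and TATTTATA. AGGAAGT occurs in 9.35% of all 32851 windows and was found in 2 of the 9, those of P2ry12 and the third of Sall1. GAGGAAGT, in 3.2% of all windows, TAAAAATA, in 2.72%, and TATTTATA, in 1.7%, were in 0 of the 9. The windows of the 2 genes that hold the match, and that of Siglech, which passed in microglia-like cells beside Sall1, are shown 5′ to 3′ on the strand of the gene, with the match in capitals: P2ry12 at chr3:59262936-59263235 (minus strand, match at base 199), Sall1 at chr8:89042813-89043112 (minus strand, match at base 70) and Siglech at chr7:55767934-55768233 (plus strand, no match).
P2ry12: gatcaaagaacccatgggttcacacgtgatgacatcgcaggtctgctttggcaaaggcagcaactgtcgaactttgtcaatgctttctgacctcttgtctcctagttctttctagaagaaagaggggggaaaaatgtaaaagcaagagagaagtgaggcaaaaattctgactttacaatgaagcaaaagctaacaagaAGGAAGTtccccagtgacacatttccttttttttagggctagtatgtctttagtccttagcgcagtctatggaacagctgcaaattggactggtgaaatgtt
Sall1: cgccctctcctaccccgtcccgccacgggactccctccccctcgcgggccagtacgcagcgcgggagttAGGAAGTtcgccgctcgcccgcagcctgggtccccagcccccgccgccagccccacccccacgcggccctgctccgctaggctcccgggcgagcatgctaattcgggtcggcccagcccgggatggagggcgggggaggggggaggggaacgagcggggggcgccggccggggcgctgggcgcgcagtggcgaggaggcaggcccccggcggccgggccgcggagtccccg
Siglech: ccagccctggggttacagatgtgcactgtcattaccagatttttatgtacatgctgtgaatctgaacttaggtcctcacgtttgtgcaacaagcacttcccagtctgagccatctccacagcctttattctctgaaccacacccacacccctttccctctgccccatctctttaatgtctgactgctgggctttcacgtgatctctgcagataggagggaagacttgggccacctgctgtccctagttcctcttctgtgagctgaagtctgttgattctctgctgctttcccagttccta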

How the data were processed

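The deposited counts are raw UMIs per gene and cell, which the authors made with Cell Ranger 1.3 on mm10. Cells showing fewer than 500 genes, or more than 10% of UMIs from mitochondrial genes, were removed, which kept 8726 of 9172 in the whole-tumor libraries and 5535 of 5724 in the CD11b+ libraries. Clusters were made with Seurat 5.3.0 (R 4.3.3) from 2000 variable genes without the 9 members, 12 components (8 for CD11b+ cells) and resolution 0.8, and named from marker lists. UMIs were summed per library and class, and classes with under 20 cells in a library gave no value there. Tests used the quasi-likelihood fit of edgeR 4.0.16 after filterByExpr, scaled by TMM, with Benjamini-Hochberg adjustment over all genes and a threshold of 0.05 and with library as a block where 2 sums came from 1 library. Gates and the test of the difference in response used such blocks. Intervals are exact, at 95%. Scrublet (scanpy 1.11.5, Python 3.11.15, expected rate 0.05) called 20, 6, 25 and 25 doublets in the whole-tumor libraries and 1 and 0 in the CD11b+ libraries; they stayed in and were left out in an alternative. Other alternatives were DESeq2 1.42.0, no filter, thinning to 2000 UMIs, resolutions 0.4 and 1.2, clusters made with the 9 genes, gates in place of clusters, leaving out each library, and a replicate block. Levels between classes were correlated on log2 of CPM plus 10, leaving out genes that averaged below 20 CPM.

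The 9 members are named whatever their value in each test. Of the lists, the genes that passed are named, up to the 4 with the largest change in each direction per list and comparison, as are up to 3 genes most like each member. Members and lists were chosen with earlier results of these data known. Levels are not divided by gene length, so they are compared between classes and libraries and not between genes.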

Additional observations from a re-analysis of the deposited data

Results flagged for a closer look

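In microglia-like cells, 7 members were higher in both shSELP libraries of the whole tumor and lower in the CD11b+ shSELP library, whose ratio to shNC was 0.691 for P2ry12, 0.774 for Sall1, 0.617 for Gpr34, 0.91 for Sparc, 0.91 for Cx3cr1, 0.643 for Siglech and 0.362 for Crybb1. Of 7474 genes, 12.3% had this pattern. The opposite directions were not tested against each other, and the day, the sort and the library preparation differ together. The descriptions of 7 sequencing entries of the CD11b+ shSELP library name the negative control, the titles and column names were followed, and whether the labels are exchanged was not tested. The CD11b+ intervals of Sall1, Sparc and Cx3cr1 reach 1, and in the gate of at least 3 of the other 8 genes the CD11b+ ratios turned for Sparc, to 1.34 (1.19 to 1.51), Cx3cr1, to 1.11 (1.01 to 1.22), and Sall1, to 1.15 (0.79 to 1.65). In that gate the intervals of P2ry12, Gpr34 and Siglech also reached 1. With at least 5 genes, a gate chosen after seeing the data, Cx3cr1, at 0.959, and Sall1, at 0.832, were again below 1. Sparc stayed above 1 there, at 1.1 (0.949 to 1.26).

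Genes of the related lists passed the edgeR quasi-likelihood test of a different response in microglia-like and macrophage-like cells, given as the log2 difference of shSELP to shNC in microglia-like cells minus that in macrophage-like cells, so that a positive value can also be a smaller decrease. Among other homeostatic genes this was Cst3 at 0.77. Among genes of activated microglia 2 were higher, Lpl at 1.72 and Igf1 at 1.46, and 8 were lower. The 4 with the largest decrease were Gpnmb at -1.89, Spp1 at -1.74, Cst7 at -1.42 and Fabp5 at -1.29. Igf1 measured 95.2 and 137 CPM in shNC and 47.0 and 48.4 CPM in shSELP in microglia-like cells, and 13.4 and 33.5 against 2.34 and 3.57 CPM in macrophage-like cells. Lpl measured 90.1 and 60.0 against 44.9 and 74.6 CPM, and 23.5 and 19.2 against 3.12 and 6.23 CPM. Among monocyte and macrophage genes these were Mrc1 at 2.20, F13a1 at 1.97, Fn1 at -1.59, Ms4a7 at -0.78 and Vim at -0.70.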

How the results depend on the processing

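The 9 members were higher in gated microglia under each of the 14 alternatives tried. For shSELP against shNC in microglia-like cells, single-gene values were counted over the members and over the list genes named because they passed. Of these values 221 kept their direction and their side of the threshold, 29 passed where they had not, 33 no longer passed and 1 turned. The count of members called, 2, was 1 by DESeq2, 6 with no filter, 0 thinned, 8 and 7 at resolutions 0.4 and 1.2, 0 with clusters made with the 9 genes, 0 in the gate of at least 3 genes and 1 in that of at least 5 (chosen after seeing the data), and 0 to 7 with 1 library left out. The count of all genes, 92, was 391 with no filter, 7 thinned, 1093 and 579 at resolutions 0.4 and 1.2, 23 with clusters made with the 9 genes, and 103 to 500 with 1 library left out. Olfml3 then ran from -0.11 to 0.18. At resolution 0.4 the microglia-like class held 208, 217, 379 and 236 cells, of which 36.1%, 17.1%, 1.85% and 2.97% were macrophage-like at 0.8.

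In macrophage-like cells the count of members, 0, was 3 with no filter and 0 to 4 with 1 library left out. The count of all genes, 51, was 165 by DESeq2, 601 with no filter, 26 thinned, 5 at both other resolutions, and 103 to 154 with 1 library left out. The direction turned for Gpr34, to -0.40 without the 5% of cells with the highest Scrublet scores (chosen after seeing the data) and -0.92 with clusters made with the 9 genes. It turned for Siglech, to -0.59 with those clusters and -0.07 in the gate of at least 3, and for Sparc to -0.15 in that gate. With 1 library left out, Gpr34 ran from -0.64 to 1.83, P2ry12 from -0.11 to 1.07, Tmem119 from -0.55 to 0.35, Siglech from -0.96 to 2.65, Cx3cr1 from -1.02 to 0.01 and Sparc from -0.13 to 1.82.

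For the difference in response the count of members, 0, was 1 with no filter, 1 without those 5% of cells, 2 and 1 at resolutions 0.4 and 1.2, 2 with clusters made with the 9 genes, 1 without the shallow cluster (also chosen after seeing the data), and 0 to 4 with 1 library left out. The count of all genes, 119, was 73 by DESeq2, 300 with no filter, 200 without those 5% of cells, 15 thinned, 598 and 266 at the other resolutions, and 31 to 284 with 1 library left out. The direction of Gpr34, Siglech and Sparc turned in 6 alternatives: without the 5% of cells, at resolutions 0.4 and 1.2, with clusters made with the 9 genes, and in the gates of at least 3 and at least 5. In this order Gpr34 gave 1.11, 0.59, 0.61, 1.48, 1.06 and 0.54, Siglech 0.37, 0.59, 0.60, 1.54, 1.67 and 1.03, and Sparc 0.02, 0.33, 0.36, 0.23, 1.13 and 0.56. The direction also turned for Crybb1, at 0.21 in the gate of at least 3, and for Sall1, at 0.66 thinned and 1.40 and 0.93 in the gates. With 1 library left out, Gpr34 ran from -0.71 to 0.72, Crybb1 from -1.99 to 0.49, Tmem119 from -0.04 to 0.96, Siglech from -1.66 to 1.57, Sall1 from -2.81 to 1.07 and Sparc from -1.05 to 0.15.

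In the CD11b+ microglia-like cells the count of members lower by 1.5-fold, 3, was 1 in the gate of at least 3, 2 in that of at least 5 and 2 thinned. In macrophage-like cells the count, 3 with Sall1 under the minimum of 20 UMIs, was 4 with TMM scaling (Tmem119 then at 0.632), 4 thinned (Sparc then at 0.624) and 4 in the gate (Sparc then at 0.569). With the replicate number as a replicate block, 7 members and 575 genes were called in microglia-like cells and 124 genes in macrophage-like cells. The correlation of the libraries' deviations by number was only 0.059 and -0.014. With 2 libraries per group such values cannot decide whether the numbers pair the libraries, so no reading rests on the block. Where a library is left out, the lone library of its group is assumed to vary like the others. Apart from fewer cells, libraries or genes tested where the setting itself removes them, the cause was not tested.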
